A study of Mus musculus with 4 samples.

Results

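The dual-specificity MAP kinase phosphatases were followed in chondrocytes with and without the histone demethylases Kdm6a and Kdm6b. The family was chosen by name: Dusp1, Dusp4, Dusp5, Dusp6, Dusp7, Dusp8, Dusp9, Dusp10, Dusp14 and Dusp16, which act on the MAP kinases ERK, JNK or p38. These are 10 of the 17575 genes listed in any library, and 3 of them (Dusp5, Dusp6 and Dusp7) act mainly on ERK and are set beside the other 7. The family was proposed with its knockout against wild type values in view, so those values are given as a description, and no call of a member is used as support for any statement. Chondrocytes, the cells that build cartilage, came from rib cartilage of C57/Bl6 mice aged 10 days, were freed by overnight digestion with collagenase II, plated, and lysed in Trizol for RNA-seq. Of the 4 libraries, 2 were from wild type mice and 2 from knockout mice, which carry the transgene Col2Cre(Tg) together with Kdm6a(fl/fl) and with Kdm6b(fl/fl), so that a Cre recombinase under Col2 control, active in cartilage, can cut the loxP-flanked alleles of both demethylase genes. The series description speaks of triplicates, while 2 libraries per group were analysed here. No label states that replicate libraries are from different animals or cultures, and every p-value therefore reflects only how far these samples differ, which may be technical variation. The RNA is from the whole plated population, in which fewer cells of a type and less RNA per cell cannot be told apart.

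MAP kinases are switched on by phosphate groups on a threonine and a neighbouring tyrosine, and the dual-specificity phosphatases switch them off by removing both. Several of these phosphatases are themselves made in response to MAP kinase signalling, which makes them parts of negative feedback loops. In cartilage, ERK signalling downstream of fibroblast growth factor receptors is known to restrain chondrocyte proliferation and maturation, and p38 signalling is known for its part in chondrocyte differentiation.

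Promoter sequence was compared first, because several family members are known as immediate response genes whose transcription is governed by short elements close to the start. The RefSeq table of build GRCm38.p6 held a window of 300 bases, from 250 before to 50 after the gene start, for 8 of the 10 members, with no entry for Dusp4 and Dusp9. All 8 were rich in CpG: the ratio of observed to expected CpG ran from 0.802 in Dusp6 to 1.02 in Dusp14, whereas the median of all 32851 windows in the table was 0.384 and their upper quartile 0.75. The elements searched, on both strands, differed between members. The 150 bases before the start are shown for Dusp5 and Dusp6, which differed most in level between the genotypes among the ERK-selective members with a window, and for Dusp1 and Dusp8, which hold a full cAMP response element. Capitals mark that element (TGACGTCA) and the CArG box, the site of serum response factor, and each line runs 5′ to 3′ on the strand of the gene: chr17:26508473-26508622 on the minus strand for Dusp1, chr19:53528995-53529144 on the plus strand for Dusp5, chr10:99263081-99263230 on the plus strand for Dusp6 and chr7:142095285-142095434 on the minus strand for Dusp8.
Dusp1: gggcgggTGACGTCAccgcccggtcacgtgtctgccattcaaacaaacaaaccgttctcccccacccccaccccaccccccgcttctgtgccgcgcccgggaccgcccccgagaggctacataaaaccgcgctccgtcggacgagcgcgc
Dusp5: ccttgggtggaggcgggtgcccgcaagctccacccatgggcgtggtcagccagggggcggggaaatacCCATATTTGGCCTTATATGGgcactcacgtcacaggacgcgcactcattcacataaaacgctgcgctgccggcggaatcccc
Dusp6: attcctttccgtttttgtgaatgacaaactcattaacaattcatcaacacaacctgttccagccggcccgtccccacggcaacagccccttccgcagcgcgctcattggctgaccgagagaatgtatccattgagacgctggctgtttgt
Dusp8: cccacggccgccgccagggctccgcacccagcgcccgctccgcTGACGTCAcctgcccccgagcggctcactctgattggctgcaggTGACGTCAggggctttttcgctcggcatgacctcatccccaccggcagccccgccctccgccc
The Dusp5 sequence held 2 adjacent CArG boxes, whose first bases lay 82 and 72 bases before the start, and 1.63% of all windows held at least 1. The full cAMP response element lay 143 bases before the start of Dusp1 and 107 and 63 before that of Dusp8, against 1.79% of all windows with a match. Its core TGACG, which lies within the full element, was found in Dusp1, Dusp5, Dusp8 and Dusp16 and in 20.8% of all windows. The GC box GGGCGG was in 7 of the 8 windows, all but Dusp6, and in 35.7% of all windows. The CCAAT box, the site of NF-Y, was in Dusp6, Dusp7, Dusp8, Dusp10 and Dusp16 and in 37.4% of all windows. No member window held the AP-1 site TGANTCA (7.81% of all windows), the ETS site CCGGAAG (8.86%) or TATAAA (13.6%). The shares over all windows were not matched for base content. GC content ran from 57.3% in Dusp6 to 78.7% in Dusp7, against a median of 52.7% over all windows. A match shows only that these letters are present, and the absence of one is limited to this window.

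**Figure D1:**
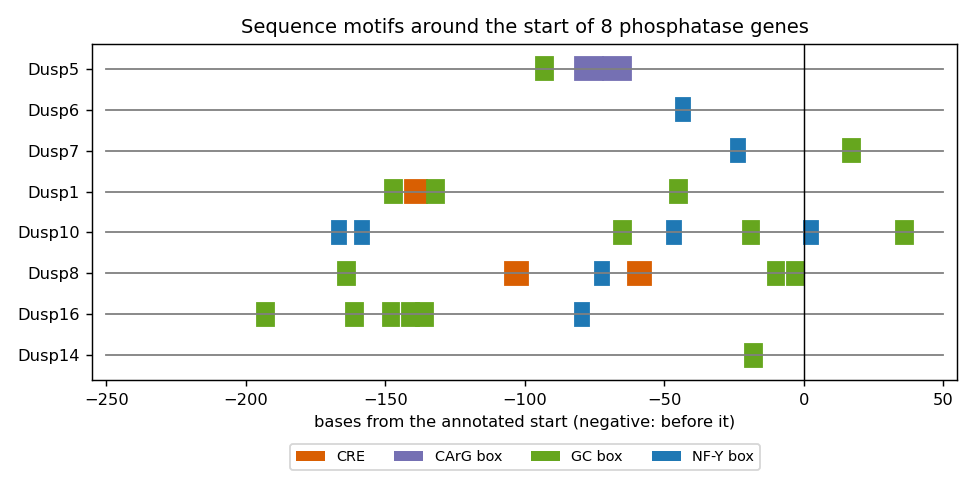
Positions of sequence elements in the 8 member windows, with distance from the gene start in bases on the horizontal axis and 1 line per gene. Marks show the cAMP response element (CRE), the CArG box, the GC box and the CCAAT box (drawn as NF-Y box), with the pair of CArG boxes in Dusp5 only and the full cAMP response element in Dusp1 and Dusp8 only.

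Before the family is described, the libraries were checked. Estimated counts summed to 31178248 to 32332044 per library. Kdm6b stood at 131 and 118 CPM (counts relative to library size, scaled by edgeR's TMM method) in wild type and 51.4 and 46.2 in the knockout, a log2 fold change of -1.35 (SE 0.091). Kdm6a stood at 52.6 and 56.9 against 28.6 and 31.4 CPM, a log2 fold change of -0.87 (SE 0.087). Counts cover all exons of a gene, so the remaining reads do not measure intact transcript. All 12 chondrocyte markers were listed in the libraries, and Col2a1, the main collagen gene of cartilage, stood at 26010 and 24370 CPM in wild type and 37110 and 36600 in knockout.

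Between the genotypes the members' levels differed unevenly. 5 of the 10 members fell in the knockout (Dusp4, Dusp5, Dusp6, Dusp10 and Dusp14), and 0 rose, at an adjusted p under 0.05 in edgeR's quasi-likelihood test with Benjamini-Hochberg adjustment over 13773 genes. Of all tested genes 9.25% were called, 5.63% lower and 3.62% higher. The median log2 fold change was -0.54 over the 10 members and 0.00 over all tested genes. Adjusted p-values of the 5 in edgeR ran from 0.00152 for Dusp5 to 0.0166 for Dusp6. In TMM-scaled CPM, both knockout libraries lay below both wild type libraries in 7 members, above them in Dusp9, and overlapped them in Dusp1 and Dusp7. Of all tested genes 30.7% had both knockout libraries below and 30.9% above.

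The nuclear, inducible phosphatases came apart. Dusp5 encodes a nuclear enzyme that acts on ERK alone and also holds ERK in the nucleus. Its wild type levels were 39.6 and 35.7 CPM and its knockout levels 11.9 and 10.5. Both knockout values were far below both wild type values, with means of 37.7 ± 2.74 and 11.2 ± 0.973 (SD, n = 2 each). The log2 fold change of -1.75 (SE 0.108), a level 3.37-fold lower, was the greatest fall in the family. Dusp4, the nuclear phosphatase of ERK, JNK and p38 that is itself induced by ERK, gave 25.5 and 21.1 CPM in wild type and 11.4 and 10.8 in knockout. Its groups were also apart, and its log2 fold change was -1.07 (SE 0.127), or 2.10-fold lower. Dusp1, the immediate early nuclear phosphatase of p38, JNK and ERK that stress and glucocorticoids induce, did not follow them. It gave 281 and 319 CPM in wild type and 315 and 342 in knockout, so that the lower knockout value lay within the wild type range. The log2 fold change of 0.13 (SE 0.0906, adjusted p in edgeR 0.369) was not called.

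The cytoplasmic enzymes that prefer ERK also split. Dusp6 encodes the cytoplasmic ERK phosphatase that serves as a feedback gene of fibroblast growth factor signalling. Its level was 193 and 189.6 CPM in wild type, nearly equal, and 108 and 72.7 in knockout, where the libraries differed 1.48-fold. Both knockout values were below both wild type values, and the log2 fold change was -1.09 (SE 0.172), or 2.12-fold lower. This size depended on the knockout library: it was -1.40 without knockout replicate 1 and -0.82 without knockout replicate 2. Dusp7, a close relative of Dusp6 with the same substrate preference, gave 67.1 and 48.2 CPM in wild type and 39.6 and 49.2 in knockout. Its wild type libraries differed by 1.39-fold and the groups overlapped, and the log2 fold change of -0.38 (SE 0.173, adjusted p in edgeR 0.206) was not called. Dusp9 encodes the remaining cytoplasmic member, which prefers ERK but also acts on p38, and lies on the X chromosome. It gave 11.4 and 10.9 CPM in wild type and 13.0 and 16.3 in knockout. It was the only member with both knockout libraries above both wild type libraries in CPM. Its log2 fold change of 0.39 (SE 0.143, adjusted p in edgeR 0.133) was not called.

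**Figure D2:**
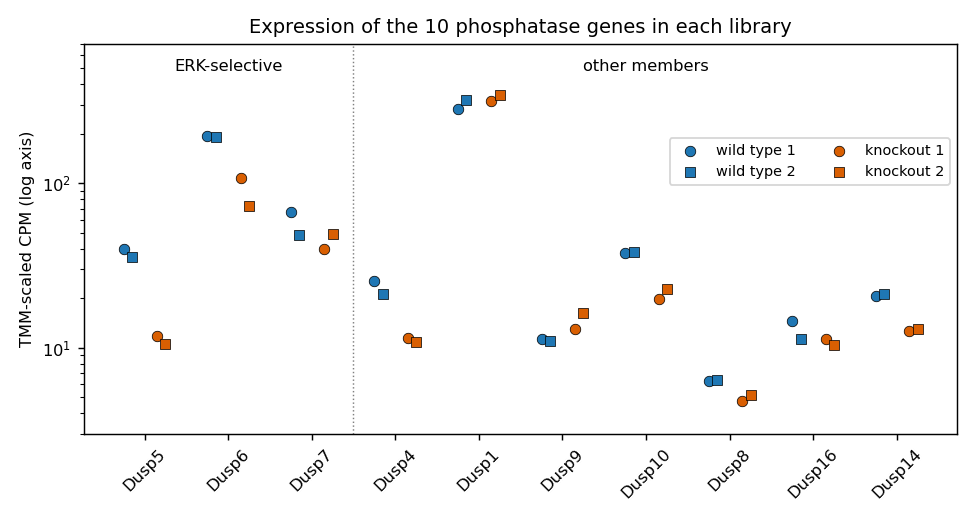
TMM-scaled CPM (log axis) of the 10 members in each library, with 1 point per library, wild type in blue and knockout in orange. In Dusp5, Dusp4, Dusp10 and Dusp14 the points of a group lie close together and the groups are apart, whereas the Dusp6 knockout points are spread and the Dusp1 and Dusp7 groups overlap.

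Among the members that prefer JNK and p38, Dusp10 fell. It encodes an enzyme found in both nucleus and cytoplasm that acts on p38 and JNK and little on ERK. Dusp10 gave 37.9 and 37.99 CPM in wild type and 19.9 and 22.6 in knockout. The wild type values were nearly identical and both knockout values were lower, with a log2 fold change of -0.84 (SE 0.0936), or 1.78-fold lower. Dusp8, which encodes a phosphatase of JNK and p38, gave 6.29 and 6.35 CPM in wild type and 4.73 and 5.19 in knockout. Its groups did not overlap, but its log2 fold change of -0.35 (SE 0.149, adjusted p in edgeR 0.178) was not called. It was the lowest member, with 155.3 counts in knockout replicate 1. Dusp16, which encodes a JNK phosphatase that shuttles between nucleus and cytoplasm, gave 14.6 and 11.3 CPM in wild type and 11.3 and 10.4 in knockout. The groups nearly touched, and the log2 fold change of -0.26 (SE 0.154, adjusted p in edgeR 0.306) was not called.

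Dusp14 encodes a small phosphatase without the amino-terminal domain through which the other members bind their kinases. It gave 20.7 and 21.3 CPM in wild type and 12.7 and 12.9 in knockout. The libraries of each group were close and the groups were apart, with a log2 fold change of -0.71 (SE 0.0991), or 1.64-fold lower.

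**Figure D3:**
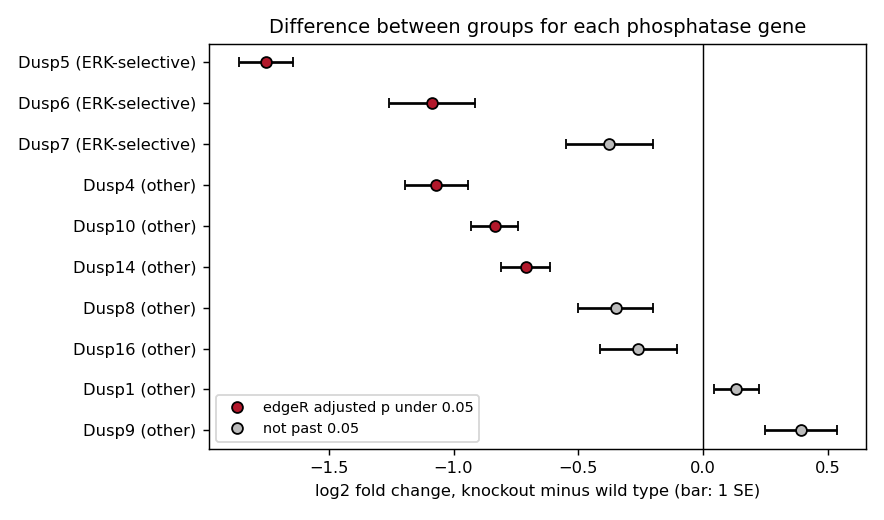
Log2 fold change of each member, knockout minus wild type, with its standard error, derived from the edgeR test, as a bar and the called members in red. Dusp5 at -1.75 lies farthest to the left, Dusp7 lies among the members that were not called, and Dusp1 and Dusp9 lie above 0.

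The ERK-selective members had a median log2 fold change of -1.09, with values from -1.75 to -0.38. The other 7 had a median of -0.35, with values from -1.07 to 0.39. The difference between those medians was -0.73, which is a description of 3 and 7 chosen genes and was not tested. It depended on where Dusp9 was placed: with Dusp9 counted as ERK-selective the difference shrank to -0.20. It also depended on 1 library, ranging from -1.08 without knockout replicate 1 to -0.41 without knockout replicate 2. The ranges of the classes overlapped, since Dusp4 fell as far as Dusp6, and Dusp10 and Dusp14 fell further than the value of Dusp7. Grouping by place and substrate gave a median of -1.07 for the nuclear inducible Dusp1, Dusp4 and Dusp5. The median was -0.38 for the cytoplasmic Dusp6, Dusp7 and Dusp9, which prefer ERK. It was -0.35 for Dusp8, Dusp10 and Dusp16, which prefer JNK and p38. Each of these groups of 3 held at least 1 called and 1 uncalled member.

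Levels per transcript length (FPKM) allow members to be ranked against each other. In wild type, Dusp1 was the most abundant at 152 FPKM, followed by Dusp6 at 67.1 and Dusp5 at 32.8. Dusp7 followed at 17.6, Dusp14 at 14.5 and Dusp10 at 13.8, and of neighbours in the order only Dusp7 and Dusp14 overlapped between libraries. Dusp4 at 9.51, Dusp9 at 4.05, Dusp16 at 2.55 and Dusp8 at 1.28 FPKM closed the order. In knockout, Dusp1 stood at 171 FPKM and Dusp6 at 32.4, both in the same ranks. Dusp7 at 13.9 then stood above Dusp5 at 9.97, and Dusp9 at 5.45 above Dusp4 at 4.64, and no neighbours overlapped. The lower ranks, Dusp16 at 2.18 and Dusp8 at 1.04 FPKM, were the same. Overlap between the genotypes differed from that in CPM for Dusp1 and Dusp16. Dusp1 was higher in both knockout libraries, with 144 and 160 FPKM in wild type and 164 and 178 in knockout. Dusp16 overlapped, with 2.96 and 2.14 FPKM in wild type and 2.25 and 2.1 in knockout. By limma on filtered log2(FPKM + 1), Dusp1 was not called (log2 fold change 0.17, adjusted p 0.225). The median log2 fold change over all genes in that fit was 0.05, beside 0.00 in edgeR. The share of all genes with both knockout libraries higher in FPKM is not given here.

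The make-up of the family's transcripts differed accordingly. The FPKM of all 10 members came to 316 and 314 in wild type and 255 and 259.8 in knockout. Dusp1 supplied 45.7% and 50.8% of this sum in wild type and 64.4% and 68.4% in knockout. The ERK-selective members supplied 39.3% and 35.2% in wild type and 24.2% and 19.5% in knockout. Both knockout shares were below both wild type shares, with means of 37.2% ± 2.88 and 21.9% ± 3.28 (SD, n = 2 each), a difference of -15.4 percentage points. These shares are given as a description, without a test, and an exact two-sided permutation test of 2 against 2 cannot go below a p of 0.333. The difference was smaller without Dusp1 in the sum, where the ERK-selective share was 72.4% and 71.6% in wild type and 67.8% and 61.8% in knockout, a difference of -7.14 points. Without Dusp1 the family summed to 172 and 155 FPKM in wild type and 91.0 and 82.1 in knockout, a ratio of 0.531, beside 0.479 for the ERK-selective members alone.

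**Figure D4:**
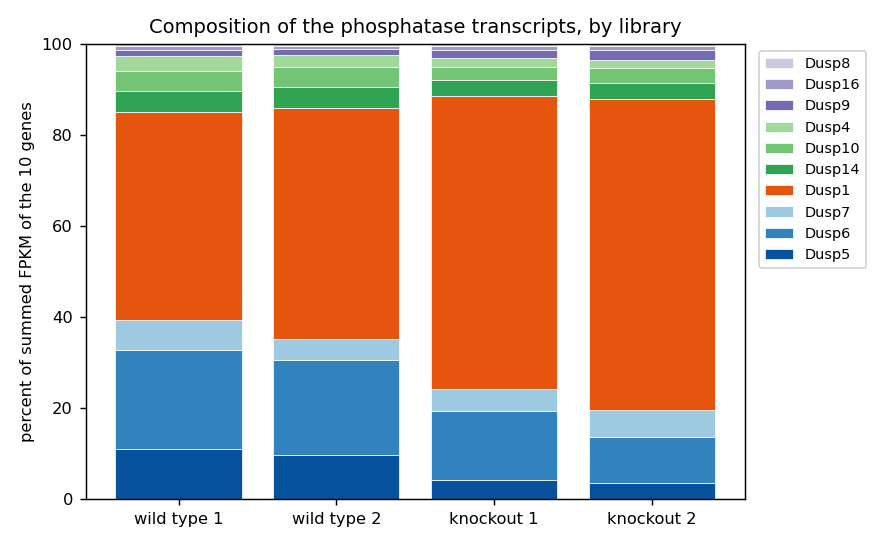
Percent of the summed FPKM of the 10 members that each gene supplied (vertical axis), as 1 stacked bar for each of the 4 libraries. The Dusp1 portion is 45.7% and 50.8% in wild type and 64.4% and 68.4% in knockout, and the portions of Dusp5 and Dusp6 are smaller in both knockout libraries.

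The MAP kinase genes, and the relay above them, were measured in the same fit. Of 11 tested MAP kinase genes, 1 fell and 0 rose, with a median log2 fold change of -0.06. The fall was in Mapk13, which encodes a p38 isoform, at 4.76 ± 0.914 CPM in wild type and 1.58 ± 0.331 in knockout (SD, n = 2 each), a log2 fold change of -1.59. Mapk3, which encodes ERK1, had a log2 fold change of 0.34 and was not called. Mapk6, with a log2 fold change of -0.31, was not called by the main edgeR fit over all 4 libraries (adjusted p 0.0885). It was called lower by DESeq2 (adjusted p 0.033), and by edgeR without knockout replicate 1 (adjusted p 0.0439) or with the replicate block (adjusted p 0.0329). Mapk7, with a log2 fold change of -0.23, was not called by edgeR. Of 29 genes from Ras through Raf to the MAP kinase kinases, 1 rose (the Ras relative Rras2, log2 fold change 0.44) and 1 fell (the adaptor Shc1, -0.31), with a median of -0.06. The Shc1 call, at an adjusted p of 0.0431 in edgeR, was lost with no filter on low counts (0.0757), in limma on filtered log2(FPKM + 1) (0.058) and in edgeR without knockout replicate 1 (0.122) or 2 (0.148). Map2k4 and Map2k3, kinases of JNK and p38, had uncalled log2 fold changes of -0.24 and -0.23. Of 17 upstream kinases and scaffolds of JNK and p38, 2 fell, Map3k6 (-0.52) and Map3k20 (-0.35), with a median of -0.10. Both calls were near the threshold in edgeR (adjusted p 0.0419 and 0.0447). With no filter, in filtered limma and without knockout replicate 1, 0 calls were left in this list, and 1 without knockout replicate 2. Mapk8ip3 (-0.30) and Map3k12 (0.41) were not called in the main edgeR fit. Mapk8ip3 was called lower by DESeq2 (adjusted p 0.0426) and by edgeR with the replicate block (adjusted p 0.0354).

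Of 26 tested genes known as outputs or feedback regulators of ERK, 7 fell and 0 rose (Ccnd1, Epha2, Fosl1, Ier3, Phlda1, Spry2 and Spry4), with a median log2 fold change of -0.49. In edgeR 14 were called with the replicate block and 6 with no filter on low counts. In CPM, 20 of the 26 had both knockout libraries below both wild type libraries and 3 had both above. Over all tested genes these shares were 30.7% and 30.9%. This list, like the others, was drawn up with earlier results of these data known, so its direction is not independent evidence. Spry2, a feedback inhibitor of receptor tyrosine kinase signalling, stood at 155 and 155 CPM in wild type and 74.6 and 67.6 in knockout, a log2 fold change of -1.13 (SE 0.079). Its relative Spry4 had a log2 fold change of -0.94. Epha2, which encodes an ephrin receptor, had one of -1.45, and the AP-1 subunit gene Fosl1 one of -0.85. Other ERK outputs were not called. Etv5, a transcription factor gene often read together with Dusp6, stood at 42.3 CPM in wild type and 42.0 in knockout, and its groups overlapped. Egr1 stood at 100.2 and 82.9 CPM, with both knockout libraries lower (log2 fold change -0.27, adjusted p in edgeR 0.0631). Etv5 and Egr1 were singled out after their values were seen.

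Of 20 tested outputs of JNK and p38, 7 fell and 0 rose (Atf3, Ddit3, Elk4, Jun, Ptgs2, Zfp36 and Zfp36l1), with a median log2 fold change of -0.24. With no filter on low counts 4 were called. Ptgs2, which encodes the inducible cyclooxygenase, stood at 3031 and 3501 CPM in wild type and 984 and 1221 in knockout, a log2 fold change of -1.57 (SE 0.129). Jun, the AP-1 subunit gene that JNK acts on, gave 235 and 218 CPM against 123 and 119, a log2 fold change of -0.91. Atf3 had one of -0.90 and Zfp36l1, which encodes an RNA decay factor, one of -0.51. Markers that move with these lists were measured. Genes known to be induced by tissue dissociation share 4 genes with the ERK list and 4 with the JNK and p38 list, and 8 of 13 fell and 0 rose, with summed levels of 1420 and 1410 CPM in wild type and 861 and 1008 in knockout. Their part in the result was not tested.

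**Figure D5:**
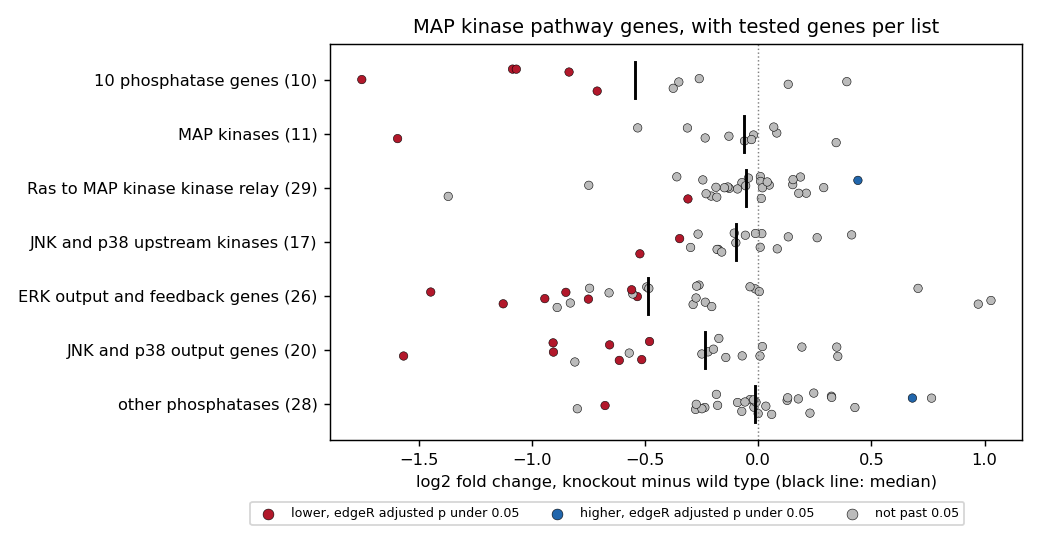
Log2 fold change, knockout minus wild type, of every tested gene in the family and in 6 lists of related genes, with called genes drawn apart and a bar at each median. The family median of -0.54 and the ERK output median of -0.49 lie below those of the kinase lists, which are between -0.10 and -0.06.

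Of 28 tested phosphatases of the dual-specificity and MAP kinase classes outside the family, 1 rose and 1 fell, with a median log2 fold change of -0.01. Dusp22, which encodes an atypical phosphatase, rose from 10.3 to 16.5 CPM (log2 fold change 0.68), and Ssh1, which encodes a cofilin phosphatase, fell from 12.4 to 7.77 CPM (-0.68). Neither was called without knockout replicate 1 (adjusted p in edgeR 0.0555 and 0.0508). Ptp4a3 and Cdc14a had uncalled log2 fold changes of 0.32 and 0.43. In the deposited annotation, 12 listed genes carry the term for MAP kinase tyrosine, serine and threonine phosphatase activity: the 10 members, Dusp2 and Dusp18. Dusp2, the nuclear phosphatase best known from immune cells, stood at 3.83 CPM in wild type and 3.73 in knockout (log2 fold change -0.04, adjusted p in edgeR 0.925). Dusp18 stood at 14.8 and 12.2 CPM (-0.27, adjusted p in edgeR 0.179). The 10 members lie on 10 different chromosomes, so no members are neighbours.

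Levels of genes that mark other cells differed with genotype beside the family. Of 9 tested macrophage markers 3 fell, with summed levels of 189 and 197 CPM in wild type and 101 and 115 in knockout. Cd14 supplied most of these sums, at 125 and 132 CPM in wild type and 61.4 and 76.3 in knockout. Of the defining markers, C1qa did not exceed 0.0921 CPM in any library. Csf1r stood at 6.48 and 6.72 CPM against 3.05 and 4.76, and Ptprc at a mean of 4.31 against 1.57. Csf1r and Ptprc were not called, and Adgre1, Mrc1 and Cd163 overlapped between the genotypes. Of 10 endothelial markers 3 fell, with sums of 135 and 125 CPM against 98.1 and 85.2. Of 8 fibroblast and perichondrium markers 3 fell, with sums of 1091 and 1552 CPM against 670 and 914. Of 7 tested erythroid markers 3 fell, with sums of 27.6 and 34.5 CPM against 13.4 and 15.3, and of 6 osteoblast markers 1 fell, with sums of 8.86 and 8.86 CPM against 3.36 and 4.48. Of 6 tested skeletal muscle markers 1 rose, with sums of 10.3 and 9.91 CPM against 7.48 and 26.6. Of the 12 chondrocyte markers 4 rose and 2 fell, with summed levels of 44610 and 43330 CPM in wild type and 61370 and 58910 in knockout. Col2a1 supplied most of these sums in every library. Those that rose were Col2a1, Col9a1, Col11a1 and Matn3. Those that fell were Comp, from 470 to 131 CPM (log2 fold change -1.84), and Snorc (-0.62). For each of these lists the part in the family's result was not tested.

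How many members are called depended on the method and on which library was left out. With 1 wild type library left out, the spread within groups comes from the 2 knockout libraries alone. In edgeR the log2 fold change of Dusp6 was then -1.07 or -1.09, beside -1.40 and -0.82 without knockout replicate 1 or 2. DESeq2 called the same 5 members lower, beside 7.32% of all tested genes called lower. The authors' deposited table, also from DESeq2, marks as down the genes with a log2 fold change of -1 or less and an adjusted p under 0.05, which holds for Dusp4, Dusp5 and Dusp6 and for 1.19% of all genes in it. In the authors' deposited table Dusp10 (log2 fold change -0.82, adjusted p 1.12e-07) and Dusp14 (-0.69, adjusted p 0.000187) miss only the cut on fold. At an adjusted p under 0.05 alone, that deposited table holds the same 5 members, beside 1493 of its 17529 genes. With either wild type library left out, edgeR called 0 members and 0 genes, with 3442 genes at an unadjusted p under 0.05 without wild type replicate 1 and 2587 without replicate 2. DESeq2 then called Dusp4, Dusp5 and Dusp10 lower in both cases, beside 2.64% of genes without wild type replicate 1 and 2.11% without replicate 2, and no longer Dusp6 (adjusted p in DESeq2 0.243 and 0.326) or Dusp14 (0.0988 and 0.189). Without knockout replicate 1, DESeq2 did not call Dusp14 (adjusted p 0.0513).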

How the data were processed

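RNA-seq values of 4 libraries, 2 wild type and 2 knockout, were grouped by the sample titles. The authors deposited, per the file headers, expected counts and FPKM values for each gene and library, and a DESeq2 comparison with the mean signal of each group as normalized counts, a log2 fold change and p-values. Bowtie2 2.2.5 and the build mm9 are named in the submitters' processing notes, and the quantifier, the annotation release and whether strand was used were not given in the sources used here. Without strand, reads of overlapping genes cannot be told apart. Expected counts need not be whole, and 74.2% to 74.6% were whole within 0.005. Genes absent from a library's list were set to 0, and 26 entries without a gene number were kept.

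Expected counts, 31178248 to 32332044 per library, were rounded and fitted across the whole table in R 4.3.3 by edgeR 4.0.16 (TMM scaling and filterByExpr) and its quasi-likelihood F test over 4 libraries, adjusted by the Benjamini-Hochberg method over 13773 genes. All 10 members passed that filter. The SE given with an edgeR log2 fold change was derived from the test. It is the absolute log2 fold change divided by the square root of the F statistic. Alternatives used DESeq2 1.42.0, limma 3.58.1 on log2(FPKM + 1), other scalings, no filter, a replicate block and each library left out, and DESeq2 with each library left out was added after seeing the data. Counts of 13773 genes were also simulated with the same biological coefficient of variation, 10.3%, for every gene. In these, edgeR called 88 of 100 genes changed 2-fold and 98 of 100 changed 4-fold, with 10 of 13573 unchanged genes. Spread differs between real genes, so these rates need not hold for the libraries. Promoter windows and names came from RefSeq tables of GRCm38.p6 (17518 genes matched), and no coordinates were carried between builds. The members and lists were chosen with earlier results of these data known. Named genes were the 10 members, Kdm6a, Kdm6b and, from each of 6 lists, up to 4 genes with the smallest p and at least 1 CPM on average. Other genes, including those named to complete a count, were named after their values were seen. Of 5 sex-linked genes fixed as markers, 2 were listed and none was tested. Ddx3y did not exceed 0.158 CPM and Uty did not exceed 0.0988 CPM in any library, and Xist was not listed.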

Additional observations from a re-analysis of the deposited data

How the results depend on the processing

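The direction of every member held in all 16 alternatives. The count of genes called, 1274, was 720 with no filter on low counts, 0 with limma on log2(FPKM + 1) without a filter (4107 at an unadjusted p under 0.05) and 2316 with the replicate block. It ran from 0 to 1275 with 1 library left out in edgeR, and in DESeq2 it was 567 and 422 without wild type replicate 1 or 2 and 684 and 814 without knockout replicate 1 or 2. Members called, 5 of 10, were 0 with limma without a filter, 0 to 5 with 1 library left out in edgeR, and 3 in DESeq2 without either wild type replicate. Genes called over the 6 lists, 21, were 0 with limma without a filter, 33 with the replicate block and 0 to 24 with 1 library left out. The block called the same 5 members, and 14 genes of the ERK output list in place of 7. Deviations of same-numbered libraries correlated at 0.126 over only 2 pairs, so the numbers were not taken to pair samples. With filtered limma, 512 of 1080 called genes were lower (47.4%, against 60.9% in edgeR), with a median shift of 0.05. The difference of the ERK-selective from the other median was -0.20 with Dusp9 moved, and -1.08 to -0.41 with 1 library left out. The ERK-selective share differed by -7.14 points with Dusp1 left out. Where not set by fewer samples or genes, the cause was not tested. Dusp8, with 155.3 to 199 counts, had the least depth.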
